A study of Mus musculus with 12 samples.

Results

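The genes described here are 9 transcription factors that set up and maintain the macrophage lineage: Spi1, Irf8, Irf5, Cebpa, Cebpb, Maf, Runx1, Mitf and Mef2c. They were chosen by gene symbol from the 27487 genes of the deposited table, and each of the 9 symbols matched 1 gene. Polyadenylated RNA was sequenced from mouse BV2 cells, a line of microglia immortalised with a retrovirus, in 12 libraries, 4 in each of 3 groups. In the Neu+NETS group, BV2 cells shared their culture with primary mouse neutrophils that had received phorbol 12-myristate 13-acetate (PMA). PMA switches on protein kinase C, upon which neutrophils cast out extracellular traps (NETs) of chromatin and granule proteins. In the Neu group the primary neutrophils had received no PMA, and in the CTR group BV2 cells grew without neutrophils. The series was made to ask what neutrophils, and their traps in particular, change in the transcripts of microglia. The sources used here do not give the time in co-culture, the number of neutrophils or whether they were removed before RNA was taken. PMA, traps and the other products of stimulated neutrophils came together in Neu+NETS and cannot be told apart.

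Microglia are the macrophages of brain and retina, and their identity rests on a small set of transcription factors. PU.1, the ETS-family product of Spi1, opens macrophage enhancers together with C/EBP, RUNX and IRF proteins, and many macrophage genes carry binding sites for several of them side by side. In mice, loss of PU.1 removes macrophages and microglia, and loss of IRF8 leaves microglia altered and neutrophils in excess. MAF, MITF and MEF2C act later, on self-renewal and interleukin-10 (MAF), on lysosomes and osteoclast genes (MITF) and on the restraint of inflammatory responses in microglia (MEF2C).

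Levels are given as FPKM, fragments normalised by transcript length and by the depth of the library, and libraries are listed in the order of replicates 1 to 4. Log2 fold changes stand with their SE (4 libraries per group). Adjusted p-values come from edgeR's two-sided quasi-likelihood test, by Benjamini-Hochberg over all 16387 genes tested, and a gene was called where that p was under 0.05. Estimated counts per library totalled 53512190 to 68316549, and a sequenced fragment may stand for about 4 of them. The labels do not tie replicates to separate cultures, so p-values measure only how far these libraries scatter, and that scatter may be technical. The labels give retina as the tissue and BV2 as the line. All 13 microglia and macrophage markers were detected, with summed levels of 813 to 829 FPKM in Neu+NETS, 1304 to 1350 in Neu and 1230 to 1302 in CTR. Of 9 retinal markers 6 were listed, with summed levels of 23.6 to 26.3 FPKM in Neu+NETS, 21.5 to 23.4 in Neu and 25.3 to 27.0 in CTR. Most of that sum was Glul, glutamine synthetase, which many cell types express, at 22.7 FPKM in Neu+NETS, 19.7 in Neu and 24.0 in CTR. Rbpms, of ganglion cells, averaged 1.38 FPKM in Neu+NETS, 1.91 in Neu and 1.31 in CTR. Of the photoreceptor genes, Sag averaged at most 0.0753 FPKM in any group, while Pde6b averaged 0.660 in Neu+NETS, 0.680 in Neu and 0.807 in CTR. Gfap, of glia, averaged 0 FPKM in Neu+NETS, 0.0137 in Neu and 0.0116 in CTR. Of 15 markers of mature neutrophils 9 were listed, with summed levels of 0.866 to 1.38 FPKM in Neu+NETS, 14.6 to 15.4 in Neu and 5.76 to 7.35 in CTR. In Neu+NETS the granule genes Camp, Mmp8 and Ngp were at 0, and S100a8, among the most abundant neutrophil transcripts, averaged 0.0547 FPKM in Neu+NETS, 0.189 in Neu and 0.257 in CTR. The Neu sum was mostly Il1r2, the decoy receptor for interleukin-1, at 8.03 ± 0.302 FPKM in Neu, against 0.320 ± 0.0685 in CTR (SD, n = 4 each).

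Promoter sequence was looked up for all 9 genes in RefSeq's table for build GRCm38.p6, and 7 matched, with 13 windows between them. The 4 stretches below, of Irf8, Cebpa, Cebpb and Runx1, hold more than 1 copy of a motif or a motif of the gene's own family. Positions are counted from the annotated start, and the first 3 stretches end on the base before it. Capitals mark TTCNNNGAA in Irf8 (the palindrome read by STAT factors), TTGCGC in Cebpa (a C/EBP core), TGACG or its reverse complement CGTCA in Cebpb (the core of the cyclic AMP response element) and ACCACA, the reverse complement of TGTGGT, in Runx1 (the RUNX core).
Irf8 promoter, chr8:120736108-120736357, plus strand: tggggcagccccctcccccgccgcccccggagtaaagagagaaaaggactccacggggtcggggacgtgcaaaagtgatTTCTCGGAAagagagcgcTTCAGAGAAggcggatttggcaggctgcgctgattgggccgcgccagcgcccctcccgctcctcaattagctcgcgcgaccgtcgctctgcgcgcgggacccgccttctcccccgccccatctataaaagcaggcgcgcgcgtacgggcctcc
Cebpa promoter, chr7:35119043-35119292, plus strand: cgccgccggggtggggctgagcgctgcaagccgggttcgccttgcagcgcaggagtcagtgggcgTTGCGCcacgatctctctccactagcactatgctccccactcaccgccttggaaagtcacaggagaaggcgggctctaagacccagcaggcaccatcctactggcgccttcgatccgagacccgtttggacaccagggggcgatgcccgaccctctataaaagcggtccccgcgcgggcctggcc
Cebpb promoter, chr2:167688665-167688914, plus strand: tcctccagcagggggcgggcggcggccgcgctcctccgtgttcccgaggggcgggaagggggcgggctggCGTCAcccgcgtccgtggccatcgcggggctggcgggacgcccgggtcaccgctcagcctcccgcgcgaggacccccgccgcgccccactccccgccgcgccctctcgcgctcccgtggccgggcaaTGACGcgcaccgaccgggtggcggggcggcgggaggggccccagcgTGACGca
Runx1 distal start, chr16:92826025-92826054, minus strand: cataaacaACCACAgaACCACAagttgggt
Both strands were searched, and each window ran from 250 bases before the start to 50 after it. TTCNNNGAA stood in the Irf8 window at -171 and -153 and in 8.29% of all 32817 promoter windows. TTGCGC stood in the Cebpa window at -185 and in 6.48% of all windows. The Cebpb window held the TGACG core at -180, -53 and -7, and 20.8% of all windows held at least 1. ACCACA began at 29 and 37 downstream of the distal Runx1 start, and the RUNX core was present in 16.8% of all windows. The ETS core GGAAGT, found in 23.8% of all windows, matched a window of Irf5 (at 39) and of Mef2c (at -58) and no window of the other 5 members with sequence. The IRF repeat, in 3.43% of all windows, and the MEF2 motif, in 3.69%, matched no window of these 7 genes. Mitf, higher in Neu than in CTR, held the TGACG core in 1 of its windows at -153 and, on the other strand, at -150. These matches overlap and are not separate copies. Another Mitf window held the RUNX core at -81, and Mef2c held TTCNNNGAA at -157. TATAAA, in 13.6% of all windows, stood at -31 in Irf8, at -30 in Cebpa and, past the start, at 22 in Cebpb. In Mitf (at -175) and in separate windows of Mef2c (at -107 and -22) it matched on the other strand only. A match is only a run of letters in this stretch, and the series measured no binding.

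In Neu+NETS all 9 factors were called lower than in CTR, beside 23.7% of all genes tested called lower and 45.3% called in either direction. The changes were 1.99-fold for Spi1, 2.16-fold for Irf8 and 1.37- to 1.78-fold for 6 others, and Maf was within a few fragments of 0. Against CTR, Irf8, Runx1 and Mitf were higher in Neu (26.1% of all genes were called higher), Spi1, Cebpa and Cebpb were lower (27.9% were called lower), and Irf5, Maf and Mef2c were not called, beside 54.1% of all genes called in either direction. Between the co-cultures, 8 of the 9 were lower in Neu+NETS than in Neu (background 33.1%), and Cebpa alone was higher (background 29.4%), with 62.5% of all genes called in either direction. These shares take in weakly expressed genes. With a filter of FPKM at least 1 in 4 libraries, 8129 of 11626 genes were called in Neu against CTR, and 7 of the 8 factors left. That filter gave 6788 genes called in Neu+NETS against CTR (3415 lower) and 8889 in Neu+NETS against Neu (4642 lower). All 8 factors left were called in both. In log2 CPM with TMM scaling, the Neu+NETS libraries of all 9 lay below all CTR libraries (as in 21.4% of genes tested). Of the 9, 3 had all Neu libraries above CTR (25.6%) and 4 had them all below (25.9%). In Neu+NETS against Neu, 8 lay below without overlap (31.9%) and 1 above (28.2%). The median log2 fold change of the 9 was -0.67 in Neu+NETS against CTR, -0.0041 in Neu against CTR and -0.83 in Neu+NETS against Neu, beside 0.00021, 0.020 and -0.049 over all genes tested. Maf passed the filter on low counts only through its Neu and CTR libraries, so its place in these counts carries no weight. The comparisons share groups and are given side by side, not as independent results. In bulk RNA, fewer cells of a type and less RNA per cell cannot be told apart.

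**Figure D1:**
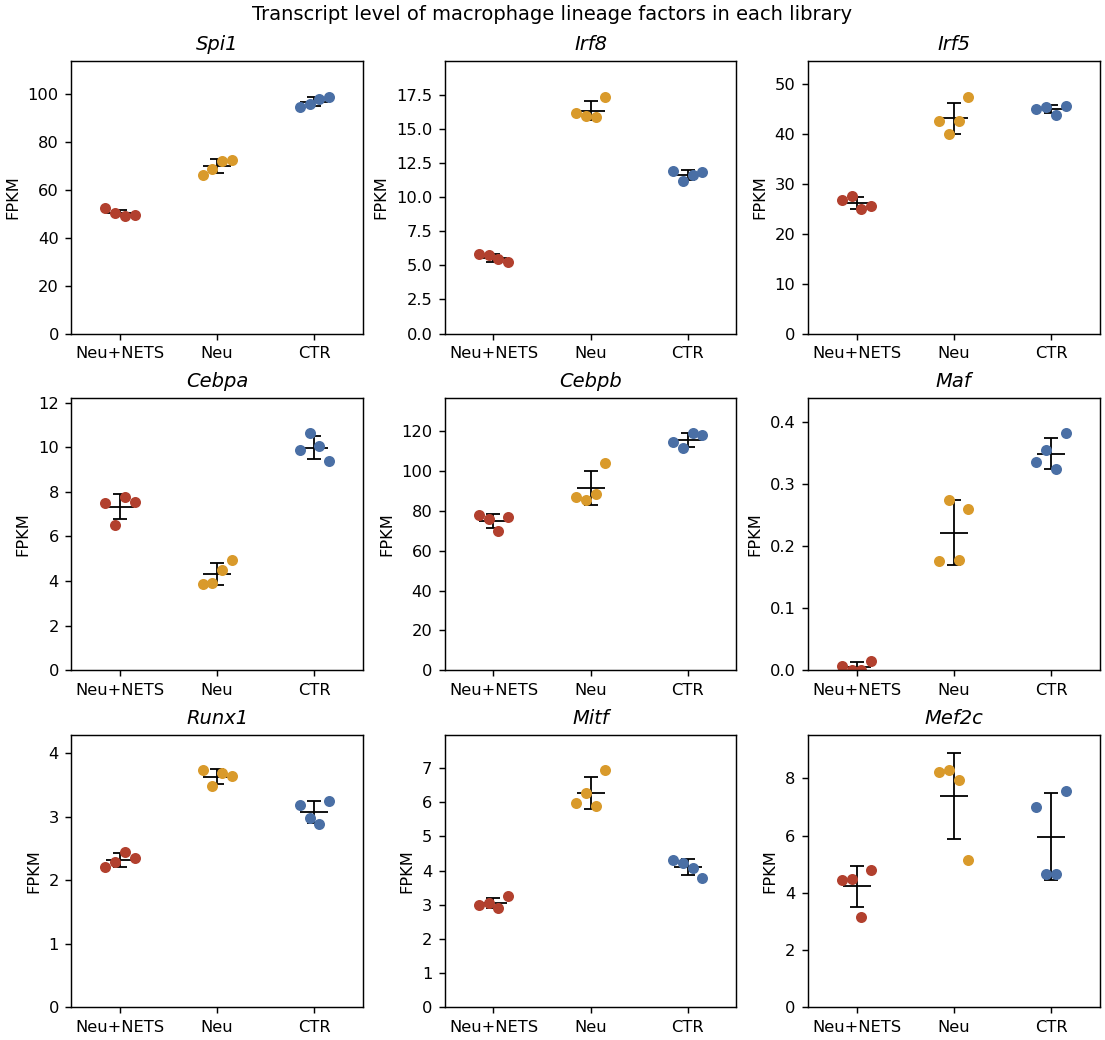
FPKM of each of the 9 factors in every library (points; 4 libraries per group, Neu+NETS left, Neu middle, CTR right), with the group mean and SD (bars). Spi1 and Cebpb are lowest in Neu+NETS and next lowest in Neu, Irf8, Runx1 and Mitf are highest in Neu, Cebpa is lowest in Neu, and Maf is at or near 0 in Neu+NETS.

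Spi1 encodes PU.1, which the lineage needs at every stage. Its level was 52.1, 50.3, 49.2 and 49.3 FPKM in Neu+NETS, 66.2, 68.6, 72.1 and 72.5 in Neu, and 94.5, 95.6, 97.9 and 98.7 in CTR. Each group lay apart from the others, with Neu between. Spi1 was 1.99-fold lower in Neu+NETS than in CTR (log2 fold change -0.99 ± 0.033, adjusted p = 3.1e-13), a larger change than that of 88.3% of genes tested. It was 1.33-fold lower in Neu than in CTR (-0.41 ± 0.033, adjusted p = 8.9e-09) and 1.49-fold lower in Neu+NETS than in Neu (-0.58 ± 0.033, adjusted p = 7.1e-11). The deposited table places Spi1 (ENSMUSG00000002111) on chromosome 2 of build GRCm39, plus strand, from 90912735 to 90946101.

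Irf8 encodes the interferon regulatory factor that pairs with PU.1 on composite sites and, in mice, steers precursors to monocytes and microglia. Its level was 5.86, 5.75, 5.43 and 5.22 FPKM in Neu+NETS, 16.2, 15.97, 15.9 and 17.4 in Neu, and 11.9, 11.2, 11.6 and 11.9 in CTR. No groups overlapped, and here Neu was the highest and Neu+NETS the lowest. Irf8 was 2.16-fold lower in Neu+NETS than in CTR (-1.11 ± 0.041, adjusted p = 1.3e-12) and 1.46-fold higher in Neu than in CTR (0.55 ± 0.040, adjusted p = 3.5e-09). Between the co-cultures it was 3.16-fold lower in Neu+NETS than in Neu (-1.66 ± 0.041, adjusted p = 1.9e-15), the widest gap of the 9 after Maf, and wider than that of 91.4% of genes tested. The gene (ENSMUSG00000041515) spans 121463097 to 121483433 on chromosome 8, plus strand.

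Irf5 encodes the factor that carries Toll-like receptor signals to inflammatory cytokine genes. It stood at 26.7, 27.6, 24.97 and 25.5 FPKM in Neu+NETS, 42.6, 40.0, 42.7 and 47.5 in Neu, and 45.1, 45.4, 43.9 and 45.7 in CTR. The Neu+NETS libraries lay below all others, and the Neu libraries overlapped those of CTR. Irf5 was 1.78-fold lower in Neu+NETS than in CTR (-0.83 ± 0.043, adjusted p = 9.2e-11) and 1.77-fold lower in Neu+NETS than in Neu (-0.83 ± 0.043, adjusted p = 2.5e-11). Between Neu and CTR the log2 fold change was -0.0041, with a 95% interval of -0.094 to 0.086 (adjusted p = 0.945), and the sign changed with the processing. The gene (ENSMUSG00000029771, chromosome 6, plus strand, 29526624 to 29541870) overlaps Tnpo3 on the other strand over 1045 bases. The sources used here do not give the strand setting of the counting, so reads in the overlap could belong to either gene. Tnpo3, a nuclear import receptor, was highest in Neu+NETS, at 13.1 ± 0.172 FPKM in Neu+NETS, 9.51 ± 0.190 in Neu and 10.8 ± 0.244 in CTR (SD, n = 4 each).

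Spi1 and Irf8, whose products act as partners, stood in a different proportion in Neu. The ratio of Spi1 to Irf8 in FPKM was 9.03 ± 0.299 in Neu+NETS, 4.27 ± 0.189 in Neu and 8.31 ± 0.270 in CTR (SD, n = 4 each). The Neu libraries had the lowest ratios. Irf5 to Irf8 gave 4.71 in Neu+NETS, 2.64 in Neu and 3.87 in CTR.

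Cebpa and Cebpb encode basic leucine zipper factors that read the same sites. C/EBP alpha commits precursors to the myeloid line and restrains division, and C/EBP beta is induced in inflammation and supports macrophage activation and survival. Cebpa was at 7.51, 6.53, 7.78 and 7.53 FPKM in Neu+NETS, 3.87, 3.93, 4.49 and 4.93 in Neu, and 9.86, 10.6, 10.0 and 9.38 in CTR. It was thus lowest in Neu, with Neu+NETS between Neu and CTR and no overlap. Cebpa was 1.41-fold lower in Neu+NETS than in CTR (-0.49 ± 0.083, adjusted p = 0.000107) and 2.23-fold lower in Neu than in CTR (-1.16 ± 0.085, adjusted p = 3.5e-09), the largest change among the 9 between Neu and CTR. It was 1.59-fold higher in Neu+NETS than in Neu (0.67 ± 0.084, adjusted p = 2.3e-06). The gene (ENSMUSG00000034957) lies on chromosome 7, plus strand, from 34818718 to 34821353.

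Cebpb had the highest level of the 9 in every group: 77.9, 75.7, 70.0 and 76.7 FPKM in Neu+NETS, 87.1, 85.6, 88.7 and 104 in Neu, and 114, 111, 119 and 118 in CTR. The groups did not overlap, and the fourth Neu library stood above the other Neu libraries. Cebpb was 1.59-fold lower in Neu+NETS than in CTR (-0.67 ± 0.049, adjusted p = 6.1e-09), 1.22-fold lower in Neu than in CTR (-0.29 ± 0.048, adjusted p = 7.5e-05) and 1.31-fold lower in Neu+NETS than in Neu (-0.39 ± 0.049, adjusted p = 2.1e-06). The gene (ENSMUSG00000056501, chromosome 2, plus strand, 167530835 to 167532338) shares 908 bases with Peds1 on the minus strand, a desaturase of plasmalogen synthesis, and reads there could belong to either. Peds1 averaged 77.5 ± 2.65 FPKM in Neu+NETS, 138 ± 4.96 in Neu and 75.7 ± 0.922 in CTR, an order that Cebpb did not follow. The ratio of Cebpb to Cebpa was 10.3 ± 1.06 in Neu+NETS, 21.3 ± 1.18 in Neu and 11.6 ± 0.878 in CTR (SD, n = 4 each). The part of Peds1 reads in the level of Cebpb, and so in this ratio, was not tested.

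**Figure D2:**
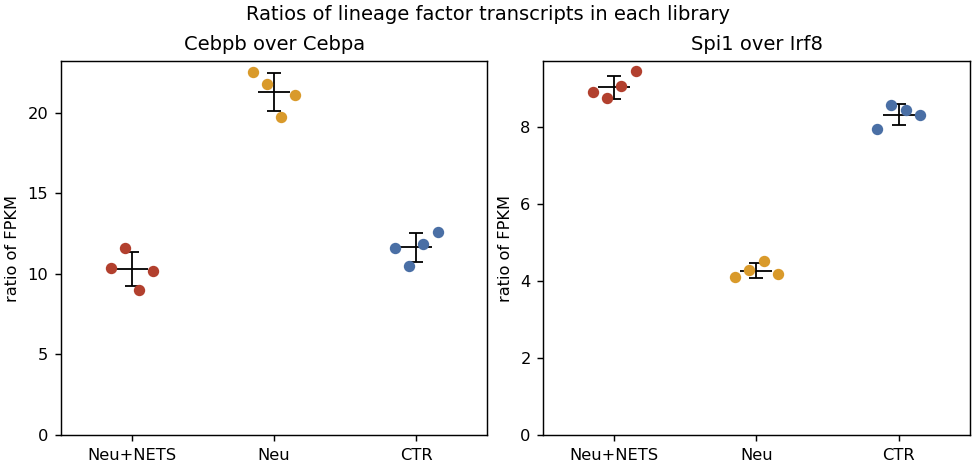
Ratio of Cebpb to Cebpa (left) and of Spi1 to Irf8 (right), both in FPKM, in each library (points; Neu+NETS, Neu and CTR from left to right), with group mean and SD (bars; 4 libraries each). Neu stands apart in both: Cebpb over Cebpa is highest there at 21.3 and Spi1 over Irf8 lowest at 4.27. Cebpb overlaps Peds1, whose part in its level was not tested.

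Runx1 encodes the runt-domain factor without which definitive blood does not form, and which acts on the Spi1 enhancer. It was at 2.20, 2.28, 2.45 and 2.35 FPKM in Neu+NETS, 3.73, 3.48, 3.68 and 3.63 in Neu, and 3.18, 2.99, 2.88 and 3.24 in CTR. The 3 groups were apart, with Neu highest. Runx1 was 1.37-fold lower in Neu+NETS than in CTR (-0.45 ± 0.051, adjusted p = 1.5e-06), 1.23-fold higher in Neu than in CTR (0.30 ± 0.051, adjusted p = 8.7e-05) and 1.68-fold lower in Neu+NETS than in Neu (-0.75 ± 0.051, adjusted p = 9.3e-10). The gene (ENSMUSG00000022952) lies on chromosome 16, minus strand, from 92398354 to 92623037.

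Mitf encodes a helix-loop-helix leucine zipper factor of the MiT/TFE family that turns on lysosomal and osteoclast genes. It was at 2.99, 3.05, 2.89 and 3.26 FPKM in Neu+NETS, 5.99, 6.29, 5.90 and 6.95 in Neu, and 4.32, 4.22, 4.07 and 3.80 in CTR. Again Neu was highest and Neu+NETS lowest, with no overlap. Mitf was 1.39-fold lower in Neu+NETS than in CTR (-0.48 ± 0.062, adjusted p = 6.9e-06), 1.59-fold higher in Neu than in CTR (0.67 ± 0.061, adjusted p = 6.4e-08) and 2.21-fold lower in Neu+NETS than in Neu (-1.15 ± 0.062, adjusted p = 4.1e-11). The gene (ENSMUSG00000035158) lies on chromosome 6, plus strand, from 97784013 to 97995668. Irf8, Runx1 and Mitf followed the same order of groups as the summed mature neutrophil markers, which were highest in Neu and lowest in Neu+NETS. In Neu that sum was 14.6 to 15.4 FPKM, mostly from Il1r2 (8.03 FPKM) and Csf3r (4.15). Csf3r stood at 5.15 FPKM in CTR, where no neutrophils were added, and was not called between Neu and CTR (adjusted p = 0.0873). Mmp8, at 0.126 FPKM in Neu and 0.185 in CTR, was not called either. Of the 6 mature neutrophil markers tested, 3 were called higher in Neu than in CTR: Il1r2, the gelatinase Mmp9 (1.46 FPKM in Neu and 0.548 in CTR, adjusted p = 0.000122) and Lcn2 (0.9496 FPKM in Neu and 0.223 in CTR, adjusted p = 5.1e-06). S100a8 stood at 0.189 FPKM in Neu and 0.257 in CTR and was not tested. The part of these transcripts in the levels of Irf8, Runx1 and Mitf was not tested.

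Mef2c encodes a MADS-box factor that holds back inflammatory responses in mouse microglia. It was at 4.46, 4.48, 3.16 and 4.79 FPKM in Neu+NETS, 8.21, 8.29, 7.94 and 5.15 in Neu, and 7.01, 4.66, 4.64 and 7.55 in CTR. Replicates scattered widely: the third Neu+NETS and the fourth Neu library were low, and CTR split into a high and a low pair. The coefficient of variation within groups averaged 21.1%, against a median of 3.93% among 2336 genes of like count. Mef2c was 1.46-fold lower in Neu+NETS than in CTR (-0.55 ± 0.18, adjusted p = 0.0170), and in FPKM, before TMM scaling, the highest Neu+NETS library (4.79) lay above the lowest CTR libraries (4.64 and 4.66). That call was lost without the third Neu+NETS library (adjusted p = 0.0644), without the first (0.0614) or the fourth CTR library (0.0708), with no low-count filter (0.0592), and in limma on log2(FPKM + 1) (0.0800) or log2(FPKM + 0.1) (0.0719), over a range of 0.00568 to 0.0800 in all settings. Against CTR, Neu had a log2 fold change of 0.37 (95% interval 0.0049 to 0.74, adjusted p = 0.0820), which was called without the fourth Neu library (0.52, adjusted p = 0.00969), without the fourth CTR library (0.50, adjusted p = 0.0268), with the filter of FPKM at least 1 (0.42, adjusted p = 0.0365) and on counts divided by 4 (0.39, adjusted p = 0.0432), over a range of 0.00969 to 0.230 in all settings. Between the co-cultures, Mef2c was 1.89-fold lower in Neu+NETS than in Neu (-0.92 ± 0.17, adjusted p = 0.000198), with no overlap. The gene (ENSMUSG00000005583) lies on chromosome 13, plus strand, from 83652153 to 83815197.

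Maf encodes c-MAF, a basic leucine zipper factor that limits macrophage self-renewal in mice and drives interleukin-10. It was the least abundant of the 9, at 0.00622, 0, 0 and 0.0154 FPKM in Neu+NETS, 0.176, 0.275, 0.177 and 0.260 in Neu, and 0.335, 0.356, 0.324 and 0.382 in CTR. Its estimated counts summed over 4 libraries were 12 in Neu+NETS, 516 in Neu and 713 in CTR. If a fragment stands for 4 of them, these are about 3, 129 and 178 fragments. Scaled to library size, Maf was 67.2-fold lower in Neu+NETS than in CTR (95% counting interval 22.6 to 329) and 44.5-fold lower in Neu+NETS than in Neu (14.9 to 219). These intervals rest on that divisor of 4 and cover counting error only. In Neu every library lay below every CTR library, yet the fitted log2 fold change of -0.60 had a 95% interval of -1.36 to 0.17 (adjusted p = 0.179). DESeq2 (0.0413), counts divided by 4 (0.0246), a fit on Neu and CTR alone (0.0135) and limma with a pseudocount of 1 (0.00341) or 0.1 (0.0130) each called it lower, over a range of 0.00341 to 0.328 in all settings. The gene (ENSMUSG00000055435) lies on chromosome 8, minus strand, from 116409681 to 116434533.

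**Figure D3:**
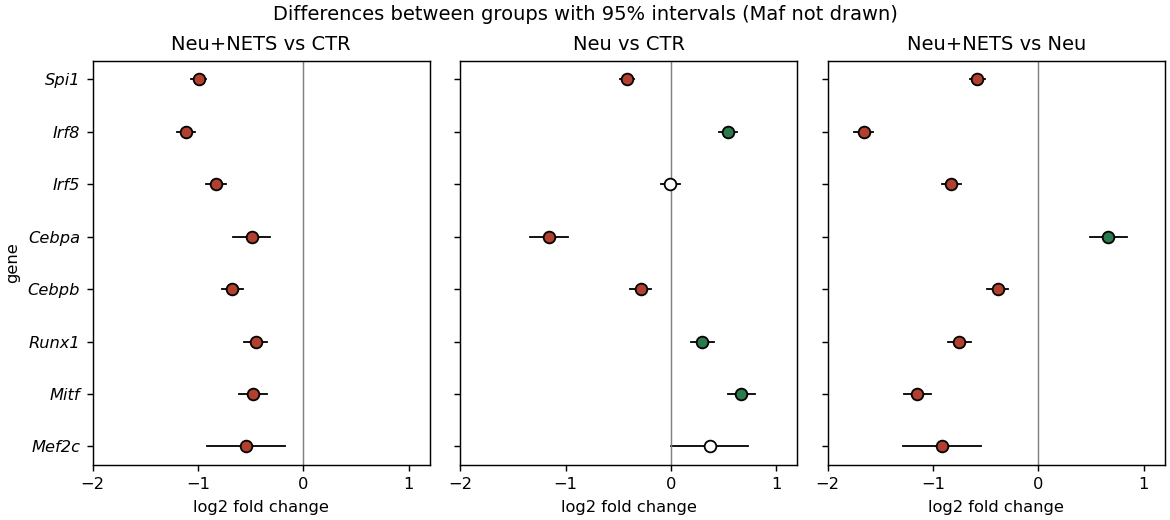
Log2 fold changes (x axis) of 8 factors from the edgeR fit with 95% intervals (lines), for Neu+NETS against CTR (left), Neu against CTR (middle) and Neu+NETS against Neu (right); filled points were called (red lower, green higher), white points were not, and Maf is not drawn. In Neu+NETS against CTR the 8 lie below 0, in Neu against CTR they fall on both sides with Irf5 at -0.0041, and in Neu+NETS against Neu only Cebpa, at 0.67, lies above 0.

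In FPKM, a scale per length on which genes can be compared, the order of levels in CTR was Cebpb (116 ± 3.52), Spi1 (96.7 ± 1.98), Irf5 (45.0 ± 0.796), Irf8 (11.6 ± 0.345), Cebpa (9.98 ± 0.513), Mef2c (5.96 ± 1.53), Mitf (4.10 ± 0.226), Runx1 (3.07 ± 0.168) and Maf (0.349 ± 0.0254; SD, n = 4). Mef2c spanned 4.64 to 7.55 FPKM in CTR, and no neighbours in that order overlapped. In Neu, Irf8 (16.4 ± 0.694) again came next after Irf5, but Mef2c (7.40 ± 1.51) and Mitf (6.28 ± 0.474) overlapped and both stood above Cebpa (4.30 ± 0.502). In Neu+NETS, Cebpa (7.34 ± 0.550) stood above Irf8 (5.57 ± 0.293), and Mef2c (4.22 ± 0.725) overlapped Mitf (3.05 ± 0.158). Cebpb (75.1 ± 3.49), Spi1 (50.2 ± 1.36) and Irf5 (26.2 ± 1.18) stayed at the head of the order in Neu+NETS, as they did in Neu at 91.3 ± 8.54, 69.8 ± 3.01 and 43.2 ± 3.14 FPKM. The closest pair of patterns among the 9 was Spi1 with Cebpb, with a root mean square difference of 0.144 in centred log2 CPM over the 12 libraries.

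The genes whose pattern over the 12 libraries came closest to each factor were found among 7068 genes with a mean of at least 5 FPKM, by the same root mean square difference. For Spi1 they were Rufy1 (0.0639), Aldh16a1 (0.0662) and Treml2 (0.0702), for Irf8 Tnfrsf1b (0.0680), Ptpn6 (0.0822) and Ifi204 (0.0908), and for Irf5 Man1c1 (0.0434), Adcy7 (0.0508) and Man2c1 (0.0522). Cebpb came closest to Anpep (0.0454), Adap1 (0.0467) and Ctc1 (0.0575), and Cebpa to Vac14 (0.0957), Pmf1 (0.113) and Lfng (0.117). For Runx1 they were Cnp (0.0600), Ift52 (0.0646) and Naip2 (0.0685), and for Mitf Jun (0.0600), Hk3 (0.0696) and Jak3 (0.0825). Mef2c, with Nr3c1 at 0.255, and Maf, with Acod1 at 0.926, had no gene as near.

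Family relatives of the 9 were mostly lower in Neu+NETS as well. Of 22 tested, 15 were lower and 4 higher in Neu+NETS than in CTR (median log2 fold change -0.39), 6 were lower and 3 higher in Neu than in CTR (0.019), and 16 were lower and 3 higher in Neu+NETS than in Neu (-0.45). For each list, the shares over all genes tested to read it against are 23.7% lower and 21.6% higher in Neu+NETS against CTR, 27.9% lower and 26.1% higher in Neu against CTR, and 33.1% lower and 29.4% higher in Neu+NETS against Neu. Among relatives the shares lower were 68.2% in Neu+NETS against CTR, 27.3% in Neu against CTR and 72.7% in Neu+NETS against Neu, so that of Neu against CTR was near the background. Tfeb, the relative of MITF that governs lysosome formation, was at 1.504 ± 0.0178 FPKM in Neu+NETS, 3.91 ± 0.402 in Neu and 4.12 ± 0.178 in CTR (SD, n = 4 each), 2.83-fold lower in Neu+NETS than in CTR (adjusted p = 3.7e-11). In contrast, the small MAF factor Maff, which lacks an activation domain, was 2.53-fold higher in Neu+NETS (13.2 ± 1.39 FPKM) and 3.26-fold higher in Neu (15.9 ± 0.486) than in CTR (5.04 ± 0.476). Runx3 took the same order of groups as Runx1, at 12.5 ± 1.60 FPKM in Neu+NETS, 23.3 ± 1.29 in Neu and 15.6 ± 1.31 in CTR. Cebpd, an inflammation-induced C/EBP factor, was lower in both co-cultures, at 3.89 ± 0.317 FPKM in Neu+NETS and 3.48 ± 0.464 in Neu, against 7.02 ± 0.608 in CTR. Irf3, which answers viral and cytosolic nucleic acid, was highest in Neu+NETS, at 11.2 ± 0.183 FPKM in Neu+NETS, 7.35 ± 0.445 in Neu and 8.84 ± 0.508 in CTR.

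Partners and regulators of the 9 divided. Of 22 tested, 13 were lower and 4 higher in Neu+NETS than in CTR (median -0.15), in Neu 11 were higher and 6 lower than in CTR (0.10), and 13 were lower and 6 higher in Neu+NETS than in Neu (-0.20). The shares higher in Neu+NETS against CTR (18.2%), lower in Neu against CTR (27.3%) and higher in Neu+NETS against Neu (27.3%) were near those of all genes, while 59.1% were lower in Neu+NETS against CTR and 59.1% in Neu+NETS against Neu. Cbfb, the subunit that steadies RUNX proteins on DNA, was at 39.4 ± 1.32 FPKM in Neu+NETS, 23.9 ± 0.922 in Neu and 40.6 ± 2.15 in CTR (SD, n = 4 each). It was 1.63-fold lower in Neu than in CTR (-0.71 ± 0.040, adjusted p = 1.5e-10), where Runx1 was higher. Hdac7, a class IIa histone deacetylase that binds MEF2 proteins, was at 0.129 ± 0.0562 FPKM in Neu+NETS, 3.54 ± 0.256 in Neu and 0.211 ± 0.0244 in CTR, 17.2-fold higher in Neu than in CTR (adjusted p = 8.2e-12). Id2, an inhibitor of helix-loop-helix factors, was at 14.3 ± 0.591 FPKM in Neu+NETS, 55.8 ± 1.97 in Neu and 30.5 ± 1.52 in CTR. Trib1 and Cop1 encode the adaptor and the ligase that send C/EBP alpha to degradation. Trib1 was at 3.72 ± 0.382 FPKM in Neu+NETS, 2.27 ± 0.113 in Neu and 2.68 ± 0.230 in CTR, and Cop1 was at 2.75 ± 0.0738 FPKM in Neu+NETS, 1.82 ± 0.198 in Neu and 2.15 ± 0.0777 in CTR. Both were higher in Neu+NETS than in Neu (Trib1 1.52-fold, Cop1 1.40-fold), as was Cebpa.

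Of 21 tested genes among other regulators of macrophage and microglia identity, 16 were lower and 1 higher in Neu+NETS than in CTR (median -0.55), in Neu 10 were higher and 6 lower than in CTR (0.090), and 17 were lower and 1 higher in Neu+NETS than in Neu (-0.56, or -0.47 with a gene near 0 set at its bound). The share lower was 76.2% in Neu+NETS against CTR and 81.0% in Neu+NETS against Neu. In Neu against CTR 47.6% were higher and 28.6% lower, the second of these near that of all genes. The genes lower in Neu+NETS include Pparg, at 0 FPKM in Neu+NETS, and its calls carry no weight. Bhlhe41, a repressor that with Bhlhe40 keeps up tissue macrophages in mice, was at 3.46 ± 0.0459 FPKM in Neu+NETS, 20.8 ± 0.940 in Neu and 8.68 ± 0.318 in CTR (SD, n = 4 each). Bhlhe40 was at 12.7 ± 0.372 FPKM in Neu+NETS, 45.6 ± 0.998 in Neu and 21.4 ± 0.554 in CTR, and both took the order seen for Irf8, Runx1 and Mitf. Nr1h3, the oxysterol receptor LXR alpha, took that of Spi1, at 3.37 ± 0.367 FPKM in Neu+NETS, 5.64 ± 0.774 in Neu and 11.8 ± 0.510 in CTR. Zfp36l2, an RNA-binding protein that destabilises transcripts, shared the order of Cebpa, at 43.2 ± 0.955 FPKM in Neu+NETS, 24.5 ± 1.13 in Neu and 51.9 ± 1.01 in CTR.

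Genes known as targets of the factors were counted in 4 lists. The share called lower in Neu+NETS against CTR was 95.7% for PU.1, RUNX1 and C/EBP, 83.3% for IRF8 and IRF5, 61.1% for MITF and TFE factors and 90.9% for MAF and MEF2C, beside 23.7% of all genes. The second and the last of these shares count genes near 0 in Neu+NETS, named below, whose calls carry no weight. In Neu against CTR the share higher was 52.2%, 38.9%, 38.9% and 36.4% for the lists in the same order, beside 26.1% of all genes, and the share lower was 17.4%, 16.7%, 27.8% and 45.5%, beside 27.9%. Of 23 targets of PU.1, RUNX1 and C/EBP, 22 were called lower in Neu+NETS than in CTR (median -1.27, or -1.01 with a gene near 0 set at its bound). In Neu 12 were higher and 4 lower than in CTR (0.13), and 23 were lower in Neu+NETS than in Neu (-1.57). Arg1, at 0.00991 FPKM in Neu+NETS and 0.0394 in CTR, is counted in the 12 and the 23, and these calls carry no weight. Cybb, the catalytic subunit of the phagocyte oxidase and a target of PU.1 with IRF8, was at 8.17 ± 0.307 FPKM in Neu+NETS, 53.8 ± 1.12 in Neu and 47.7 ± 1.70 in CTR (SD, n = 4 each). Itgam, which encodes CD11b, the alpha chain of a complement receptor, was at 31.6 ± 2.11 FPKM in Neu+NETS, 87.3 ± 3.06 in Neu and 61.6 ± 1.78 in CTR. Fcgr1, the high-affinity IgG receptor, was lower in both co-cultures, at 13.5 ± 0.743 FPKM in Neu+NETS and 25.4 ± 0.709 in Neu, against 45.3 ± 1.305 in CTR. This list shares genes with the microglia and macrophage markers. Of those 13, all called lower in Neu+NETS than in CTR, P2ry12 (0.0199 FPKM in Neu+NETS and 0.658 in CTR) and C1qa (0.0155 FPKM in Neu+NETS and 0.620 in CTR) passed the filter only through the other groups, so their calls carry no weight.

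Of 18 tested targets of IRF8 and IRF5, 15 were lower and 2 higher in Neu+NETS than in CTR (median -0.99). In Neu 7 were higher and 3 lower than in CTR (0.10), and 16 were lower in Neu+NETS than in Neu (-0.96 with 2 genes near 0 set at their bounds). The 15 and the 16 include genes near 0 in Neu+NETS, among them P2ry12 (0.0199 FPKM) and Il6 (0.0150), whose calls carry no weight. Cst3, the protease inhibitor cystatin C, was at 81.0 ± 3.02 FPKM in Neu+NETS, 147 ± 4.58 in Neu and 153 ± 3.81 in CTR (SD, n = 4 each). Tnf, tumour necrosis factor, was higher in both co-cultures, at 29.8 ± 1.26 FPKM in Neu+NETS and 32.4 ± 1.29 in Neu, against 23.2 ± 1.71 in CTR. Larger changes were those of Nos2, at 0.0179 FPKM in Neu+NETS, 95.6 in Neu and 0.183 in CTR, and of Cx3cr1. Cx3cr1 was at 0.0320 FPKM in Neu+NETS, 5.48 in Neu and 0.718 in CTR. Both lay near 0 in Neu+NETS, where their calls carry no weight. Of 18 tested targets of MITF and TFE factors, 11 were lower and 3 higher in Neu+NETS than in CTR (median -0.29). In Neu 7 were higher and 5 lower than in CTR (0.035), and 12 were lower and 2 higher in Neu+NETS than in Neu (-0.43). The 7 include Oscar, near 0 in CTR (0.0337 FPKM), whose call carries no weight. Ctsk, the osteoclast protease cathepsin K, was at 219 ± 5.45 FPKM in Neu+NETS, 811 ± 11.2 in Neu and 736 ± 24.0 in CTR. Sqstm1, the autophagy receptor p62, was higher in both co-cultures, at 165 ± 4.96 FPKM in Neu+NETS and 180 ± 4.77 in Neu, against 116 ± 0.485 in CTR. Of 11 tested targets of MAF and MEF2C, 10 were lower in Neu+NETS than in CTR (median -1.40). In Neu 4 were higher and 5 lower than in CTR (-0.41), and 10 were lower in Neu+NETS than in Neu (-1.65, or -1.13 with a gene near 0 set at its bound). The genes lower in Neu+NETS include C1qa (0.0155 FPKM in Neu+NETS), and its calls carry no weight. C1qc, a chain of complement C1q, was at 0.777 ± 0.142 FPKM in Neu+NETS, 0.999 ± 0.164 in Neu and 3.35 ± 0.175 in CTR. Hmox1, haem oxygenase-1, was not called between Neu+NETS and CTR (122 ± 3.10 FPKM in Neu+NETS and 116 ± 5.42 in CTR, adjusted p = 0.597) and stood at 372 ± 9.504 in Neu.

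**Figure D4:**
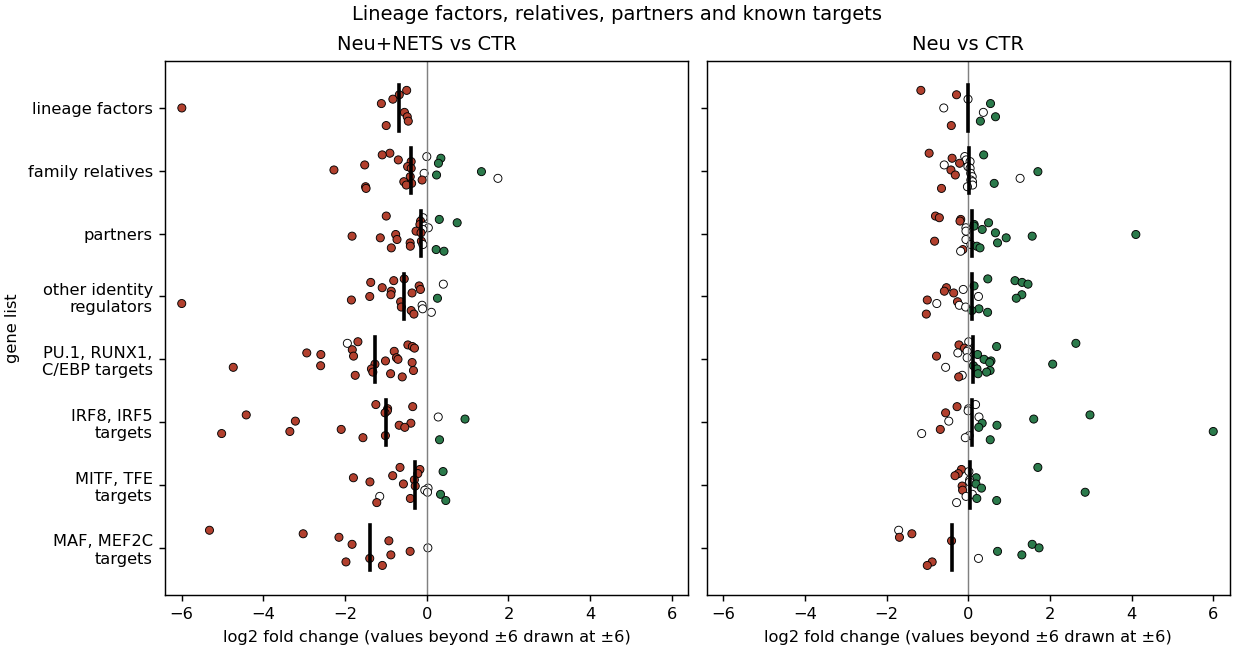
Log2 fold changes of the tested genes of each list (points) with the list median (bar), for Neu+NETS against CTR (left) and Neu against CTR (right); red points were called lower, green ones higher and white ones not called, values beyond 6 in either direction are drawn at 6, and rows run from the 9 factors through relatives, partners and other identity regulators to the 4 target lists. Medians in Neu+NETS against CTR run from -0.15 for partners to -1.40 for MAF and MEF2C targets, and in Neu against CTR from -0.41 to 0.13.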

How the data were processed

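Columns of the deposited table were matched to 12 libraries by name, and 0 count columns were left unmatched. The authors gave estimated counts, per the file headers, in whole numbers whose totals differ between libraries and so are unscaled. Of values from 2 to 41, 33.0% are multiples of 4 (25% if spread evenly). A fragment may thus stand for 4 units, but most of these values are not multiples of 4, so the factor is not settled. The main fit took the counts as deposited. The authors' FPKM were taken as deposited. Build GRCm39 and the tools edgeR, StringTie 1.3.4d and HISAT2 2.0.4 stand in the submitters' processing notes, with no role or order. The sources used here give no strand setting or annotation release.

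The 9 factors and all gene lists were chosen with earlier results of these data known. Genes passing filterByExpr (16387) were scaled by TMM (factors 0.970 to 1.03) and fitted once over all 12 libraries with edgeR's quasi-likelihood test (edgeR 4.0.16, R 4.3.3), whose common biological coefficient of variation was 12.5%. The script was tested on simulated data. SE is the log2 fold change over the square root of F. Maf, near 0 in Neu+NETS, is given as a ratio of fragments, taken as 4 units each, with exact counting intervals. A floor of 3 such fragments served as bound for genes near 0 in list medians. All 9 factors are named, and from each list up to 4 called genes per direction and comparison with the smallest adjusted p, of which the text names some. Peds1, the cell markers and genes named only for lying near 0 stand outside that rule. Tnpo3 is counted among the partners. Alternatives were DESeq2 1.42.0, limma 3.58.1 on FPKM, other scalings, filters and count scales, a fit on only the groups compared, a replicate block and leaving out each library.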

Additional observations from a re-analysis of the deposited data

Results flagged for a closer look

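In 3 of the 27 sets of 4 values (9 factors in 3 groups), 1 library stood apart from the other libraries of its group, and in each case it was the fourth Neu library. Its FPKM was 17.4 for Irf8 and 104 for Cebpb, the highest of the Neu libraries, and 5.15 for Mef2c, the lowest. By this rule chance sets apart a library in about 1 in 20 groups. Over all genes tested, the fourth Neu library stood apart from the other Neu libraries in 4.44% of genes, against 0.885% to 1.84% for the other 11 libraries in their groups. With this library left out, the 9 factors kept direction and side of the threshold in every comparison, except that Mef2c became called in Neu against CTR (log2 fold change 0.52, adjusted p = 0.00969).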

How the results depend on the processing

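Over 23 alternative settings, 595 values of the 9 factors kept their sign and their side of the threshold, 9 gained a call, 6 lost one and 8 changed sign. Irf5 between Neu and CTR accounted for the 8, at 0.0051 with DESeq2, 0.0051 with RLE scaling, 0.040 with upper-quartile scaling, 0.044 with a filter of FPKM at least 1 and 0.014 on counts divided by 4, and from -0.042 to 0.031 on leaving out 1 library; it was called in none of the settings run (lowest adjusted p = 0.285). Maf has no value with the FPKM filter. Genes called ranged from 6788 to 7746 in Neu+NETS against CTR, 8129 to 9215 in Neu against CTR and 8889 to 10466 in Neu+NETS against Neu. Same-numbered libraries did not deviate together (correlations -0.0546 to 0.0426), so numbers pair nothing; with a replicate block 7310, 8824 and 10208 genes and 9, 6 and 9 of the factors were called. No setting moved the median of all genes by 0.1. Depth limits Maf in Neu+NETS, where 12 estimated counts set the ratio.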

Other observations

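Cebpe, a C/EBP relative that drives granule formation late in granulocyte development, was among the more abundant relatives of these factors. It averaged 7.96 ± 0.918 FPKM in Neu+NETS, 20.5 ± 1.52 in Neu and 16.4 ± 1.25 in CTR (SD, n = 4 each), where no neutrophils were added. It was 2.13-fold lower in Neu+NETS than in CTR (log2 fold change -1.09 ± 0.088, adjusted p = 2.4e-08) and 1.301-fold higher in Neu than in CTR (0.38 ± 0.085, adjusted p = 0.0011) by edgeR's quasi-likelihood test. Cebpe made up most of the summed neutrophil precursor markers, which ran from 7.16 to 9.29 FPKM in Neu+NETS, 19.5 to 23.1 in Neu and 15.6 to 18.2 in CTR. The other 4 precursor markers listed were low. Prtn3, proteinase 3, averaged 0.0462 FPKM in Neu+NETS, 0.399 in Neu and 0.0645 in CTR, and was called 6.26-fold higher in Neu than in CTR (adjusted p = 0.0227). Elane, neutrophil elastase, averaged 0 FPKM in Neu+NETS, 0.0969 in Neu and 0.0381 in CTR, and Mpo, myeloperoxidase, 0 in Neu+NETS, 0.00219 in Neu and 0.00962 in CTR. Fcnb, a ficolin, averaged 0.00953 FPKM in Neu+NETS, 0.0690 in Neu and 0.0783 in CTR.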
